A study of Mus musculus with 33 samples.

Results

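The gRNAs described here target the intergenic DNA between the mouse genes Tdgf1 and Lrrc2. They are the gRNAs of the Tdgf1 screen whose interval has its midpoint inside chr9:110948159-110950499 (mm10), a window of 2341 bp that begins 2001 bp upstream of the annotated 5' end of Tdgf1. There were 250 such gRNAs among 3918 in the Tdgf1 table and 15672 in the tables of all 4 reporter lines, and 0 of them came from the table of another line. In the matching RefSeq assembly 0 gene spans overlap the window, Tdgf1 begins at 110939608 and ends before it, and Lrrc2 covers chr9:110951545-110984066, so the window is intergenic in that annotation. The rule uses positions alone and no count, but it was set with earlier results of these data known.

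The study mutated DNA around 4 genes in mouse embryonic stem cells, pluripotent cells of the early embryo that can be kept dividing in culture, and asked which positions are over-represented among cells that lost reporter signal. In the Tdgf1 line GFP had taken the place of sequence at the start site of that gene, and in every population of the line a dummy guide sat at the ROSA26 locus before gRNAs were electroporated. Cells grew in serum with LIF, a GSK-3 inhibitor and UO126, and gRNAs were counted by PCR and sequencing of genomic DNA from 3 populations of this line: bulk (after electroporation, not selected on GFP), GFP-medium and GFP-negative, with 3 replicates of each. The labels do not state whether the replicates were grown apart, and a p-value here therefore reflects the spread among these libraries alone, which may be technical. The labels give no number of clones for the line and no number of sorted cells.

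A gRNA directs the nuclease Cas9 to cut a matching stretch of DNA, and repair of the cut leaves small insertions or deletions there. Intergenic DNA can hold enhancers, stretches bound by transcription factors that raise transcription of a gene on the same chromosome. Tdgf1, also called Cripto, encodes a membrane co-receptor for Nodal signals and is transcribed in embryonic stem cells. A gRNA whose mutations lower the reporter would be expected to take a larger share of gRNA counts in GFP-medium or GFP-negative cells than in bulk, as gRNAs against GFP itself do.

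The window was tiled densely. The first interval starts at 110948181 and the last ends at 110950503, with midpoints from 2033.5 to 4334 bp upstream of the Tdgf1 5' end, and the last midpoint lies 1053 bp before the Lrrc2 start. Of the 250 intervals 219 span 23 bp and 31 span 22 bp. The median distance between neighbouring starts was 4 bp, and 249 intervals overlap another one, so the gRNAs share much of their target sequence and are not independent of each other. The widest stretches without a start lie between 110949875 and 110950081 (206 bp), between 110948811 and 110948951 (140 bp) and between 110948384 and 110948452 (68 bp). A gRNA is named below by its interval as deposited; its strand is not known here, nor whether positions count from 0 or from 1.

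A bulk library held 107960 to 123840 gRNA counts, a GFP-medium library 379072 to 461825 and a GFP-negative library 608532 to 719247. Levels of single gRNAs are given as counts relative to the library's gRNA total (CPM), and sums as a percent of that total. A count of 0 allows up to 3 counts, and 3 counts are 24.2 to 27.8 CPM in a bulk library, 6.50 to 7.91 CPM in a GFP-medium and 4.17 to 4.93 CPM in a GFP-negative library. The labels mention no molecular identifiers, so these floors and all intervals cover counting error only. Shares are relative: a gRNA can gain share because others lost copies. Replicate 2 stood apart in both sorted populations by the number of gRNAs it held: over all gRNAs of the line, 2106 were detected in GFP-negative replicate 2 against 1183 and 992 in replicates 1 and 3, and 1198 in GFP-medium replicate 2 against 827 and 533.

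Nearly all window gRNAs were found in bulk and far fewer after sorting. At least 1 count was present for 241, 237 and 225 of the 250 in bulk replicates 1, 2 and 3, for 91, 169 and 83 in GFP-negative, and for 67, 110 and 47 in GFP-medium. Replicate 2 was the highest of its population in both sorted gates, as over the whole table. Of the 250, 58 (23.2%) had no count in any of the 6 sorted libraries, against 31.8% of the other gRNAs of the table. At least 1 count in all 6 was present for 11 (4.40%), against 2.70% of the others. The fall after sorting was thus seen over the whole table.

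Detection in sorted cells followed the abundance of a gRNA in bulk. When the 250 were ordered by mean bulk CPM and cut into 4 groups of similar size, the lowest group (63 gRNAs, up to 103 CPM) held 37 that were absent from all 3 GFP-negative libraries and 51 absent from all 3 GFP-medium libraries. In the highest group (63 gRNAs, 396 to 1032 CPM) these numbers were 3 and 11. Of the 11 gRNAs found in all 6 sorted libraries, 8 were in the highest group by bulk abundance and 0 in the lowest. A gRNA that was rare in bulk was thus more often missing after sorting than an abundant one.

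As a sum, the window's share of counts did not separate the populations. It was 6.77%, 6.55% and 6.82% in bulk (6.71% ± 0.145, SD, n = 3), 6.29%, 8.63% and 8.82% in GFP-negative (7.92% ± 1.41) and 4.36%, 9.50% and 4.38% in GFP-medium (6.08% ± 2.96). GFP-negative replicates 2 and 3 were above every bulk library and replicate 1 was below all of them. GFP-medium replicate 2 was the highest of the 9 libraries while replicates 1 and 3 were the lowest, so all 3 pairs of populations overlapped. The log2 ratio of mean shares was 0.24 for GFP-negative over bulk, -0.14 for GFP-medium over bulk and 0.38 for GFP-negative over GFP-medium. Without replicate 2 of the sorted population, the ratio was 0.17 for GFP-negative over bulk and -0.62 for GFP-medium over bulk. With DESeq2's size factors in place of total counts the first ratio turned to -0.72 and the second went to -1.07, with all sorted libraries below bulk in both. That scaling lowered the other sums compared with bulk here by a similar amount, so no direction is given for the window as a whole, and its ratios are read against those of other gRNAs.

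The neighbouring DNA on the Tdgf1 side gave a different picture. The 213 gRNAs that lie 500 to 2000 bp upstream of the Tdgf1 5' end took 5.84% ± 0.320 of counts in bulk, 18.5% ± 1.98 in GFP-negative and 23.1% ± 5.03 in GFP-medium (n = 3 each), and every sorted library was above every bulk library. On the Lrrc2 side, the 207 gRNAs from the end of the window to 1 kb inside Lrrc2 took 5.76% ± 0.0750 in bulk, 5.77% ± 1.21 in GFP-negative and 4.08% ± 0.370 in GFP-medium. The 10 GFP-targeting gRNAs, the positive controls, went from 0.210% ± 0.0289 in bulk to 6.52% ± 1.94 in GFP-negative and 0.200% ± 0.189 in GFP-medium. By these summed shares, the window lay between its neighbours in GFP-negative cells, with a log2 ratio over bulk of 0.24 against 1.66 on the Tdgf1 side and 0.00 on the Lrrc2 side; with DESeq2's size factors the same 3 ratios were -0.72, 0.70 and -0.95. A scaling acts on all gRNAs of a library alike, so the same order under both adds no evidence. Of these 3 sets only the Tdgf1 side kept all GFP-negative libraries above bulk under both. The replicates differed on the order of the window and the Lrrc2 side. In GFP-negative replicate 1 the Lrrc2 side, at 7.04%, was above all bulk libraries and the window, at 6.29%, below them. In replicates 2 and 3 the Lrrc2 side, at 4.65% and 5.61%, was below bulk and the window above it. These sums were described and not tested.

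Within the window, the share in GFP-negative cells differed along the sequence. The 57 gRNAs at 2000 to 2500 bp upstream took 1.22%, 1.35% and 1.36% of counts in bulk and 1.98%, 3.00% and 3.16% in GFP-negative, so that all 3 GFP-negative libraries were above all 3 bulk libraries (log2 ratio 1.05). The same relation held for the 72 gRNAs at 3000 to 3500 bp, with 2.69%, 2.90% and 3.77% in GFP-negative against 2.28% to 2.64% in bulk (log2 ratio 0.37). It ran the other way for the 27 gRNAs at 3500 to 4000 bp, with at least 0.674% in each bulk library and at most 0.455% in each GFP-negative library (log2 ratio -1.0), and for the 41 gRNAs beyond 4000 bp, with at least 1.00% in bulk and at most 0.676% in GFP-negative (log2 ratio -0.80). The 53 gRNAs at 2500 to 3000 bp overlapped, since GFP-negative libraries ranged from 0.575% to 1.67% around bulk values of 1.18% to 1.23%. Of 79 windows of 500 bp with at least 5 gRNAs over the whole table, 11.4% had all GFP-negative libraries above bulk and 55.7% had all of them below. With DESeq2's size factors the ratios of the 5 steps, in order from Tdgf1, were 0.08, -1.04, -0.60, -1.89 and -1.74. The step at 3000 to 3500 bp thus changed direction and that at 2000 to 2500 bp overlapped bulk.

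The ratio varied with distance from Tdgf1, though not evenly. In successive 500-bp steps upstream of the 5' end, the log2 ratio of GFP-negative to bulk shares was 2.11, 1.81, 1.91 and 1.21 up to 2000 bp, and then 1.05, -0.11, 0.37 and -1.0 over the next 4, all in the window. It was -0.51 from 4000 to 4500 bp, a step with 51 gRNAs of which 41 belong to the window, and -0.22, -0.04 and -0.11 over the 3 steps beyond. In every step of the window the ratio was below that of each of the 4 steps nearer to Tdgf1. Just outside the window on the Tdgf1 side, chr9:110948145-110948167 had a mean of 251 CPM in bulk and 1536, 453 and 2301 CPM in GFP-negative. The first one inside, chr9:110948181-110948202, had a bulk mean of 182 CPM and 0, 555 and 0 CPM in GFP-negative. At the other end the last one inside, chr9:110950481-110950503, had a bulk mean of 331 CPM and 1.63, 0 and 0 CPM in GFP-negative, and the first beyond it, chr9:110950519-110950541, had 278 CPM and 3.26, 0 and 73.9 CPM. At both edges the GFP-negative libraries of the inner and the outer gRNA overlapped.

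From 2000 to 4000 bp GFP-medium cells ordered the steps as GFP-negative cells did, at lower ratios. Their log2 ratios over bulk were 0.35, -1.01, -0.49 and -1.21, each below that of GFP-negative. No 500-bp step of the window had all GFP-medium libraries above bulk, against 8.86% of the 79 windows of the table, and 3 of its 5 steps had all of them below, against 70.9%. At 2000 to 2500 bp the shares were 1.12%, 2.23% and 1.64% in GFP-medium, which overlap the bulk values. At 2500 to 3000 bp they were 0.111%, 0.820% and 0.857%, all below bulk (log2 ratio -1.01). At 3000 to 3500 bp the 3 GFP-medium libraries, at 1.23% to 2.03%, were below both the bulk and the GFP-negative libraries (log2 ratios -0.49 over bulk and 0.87 for GFP-negative over GFP-medium). In shares of total counts it was the only step of the window with all GFP-negative libraries above GFP-medium (22.8% of the 79). No step had all of them below (5.06%). With DESeq2's size factors the step at 2000 to 2500 bp also had all of them above (log2 ratio 0.66). Beyond 4000 bp the mean GFP-medium share was above bulk (log2 ratio 0.72), but this came from replicate 2 alone, with 4.06% against 0.970% and 0.388% in replicates 1 and 3. With DESeq2's size factors the ratios of the 5 steps, in order from Tdgf1, were -0.57, -1.98, -1.33, -2.18 and -0.28, with all GFP-medium libraries below bulk in each step but the last. With TMM scaling the step at 3000 to 3500 bp overlapped bulk.

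At a finer scale, 5 of the 22 steps of 100 bp that hold window gRNAs had all GFP-negative libraries above all bulk libraries, against 7.96% of 339 such steps in the table, and 6 had all of them below, against 43.4%. The 5 that were above start 2000, 2100, 2200, 2400 and 3200 bp upstream of Tdgf1. Between them, the 14 gRNAs at 2300 to 2400 bp stood out in the other direction: they took 0.120%, 0.102% and 0.155% of bulk counts and 0.0111%, 0.00681% and 0% of GFP-negative counts, a log2 ratio of -4.40. The steps on both sides of it had log2 ratios of 1.48 and 0.61. Its gRNAs were less abundant in bulk than those on the sides. The 14 together had a mean bulk share of 0.126%, against 0.104% for 4 gRNAs and 0.368% for 12. Since gRNAs rare in bulk were more often missing after sorting, the sides are not matched to it in abundance. What this contributes to the ratio was not tested. With DESeq2's size factors the ratio was -5.21 at 2300 to 2400 bp and 0.62 and -0.34 on the sides, and 0 of the 22 steps had all GFP-negative libraries above bulk. The 100-bp steps were looked at after their values were known, and the difference between neighbouring steps was not tested. For GFP-medium over bulk, 0 of the 22 steps had all libraries above, against 5.31% in the table, and 10 had all below, against 60.5%. For GFP-negative over GFP-medium, 2 steps had all libraries above and 0 had all below, against 14.7% and 1.77% in the table.

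Tests of single gRNAs by edgeR's quasi-likelihood fit over the whole table, with Benjamini-Hochberg adjustment, called no window gRNA higher in a sorted population. Of the 250, 211 passed the filter on low counts, 39 did not, and 2 of the 39 had no count in any library. Of the 211, 142 had at least 10 counts in all 3 bulk libraries, 35 in all 3 GFP-negative and 8 in all 3 GFP-medium libraries, and 175 had them in neither sorted population. A gRNA could thus pass the filter without being measured well after sorting, and the counts below are a description. For GFP-negative over bulk 0 of 211 were called higher (0% of the table's 3172), and 0 also had an unadjusted p under 0.05 (0.158% of the table). For GFP-medium over bulk the numbers were likewise 0 (0% of the table) and 0 unadjusted (0.221%). DESeq2 called 0 window gRNAs higher in GFP-negative (0.0265% of the table) and 0 in GFP-medium (0.0794%), and limma-voom called 0 in both. The same edgeR fit called no gRNA of the table higher than bulk, those against GFP included, so a count of 0 in the window is the table's own value and does not set the window apart.

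A smaller share of single gRNAs fell in the window than in the table, as was also so on both sides of the window. In GFP-negative over bulk edgeR called 30 of 211 (14.2%) lower, against 22.2% of all gRNAs tested, and in GFP-medium over bulk 58 (27.5%) against 40.3%. The Lrrc2 side was close to the window, with 26 of 182 (14.3%) lower in GFP-negative and 48 (26.4%) in GFP-medium. On the Tdgf1 side the numbers were 5 of 186 (2.69%) and 14 (7.53%). The median log2 change was -0.76 in the window and -1.67 over all tested gRNAs for GFP-negative over bulk, and -2.75 and -6.44 for GFP-medium over bulk. DESeq2 was run with its own scaling and without edgeR's filter on low counts. It gave medians of -3.60 and -7.28 over all gRNAs and window medians of -2.28 and -4.44. It called 50 of 248 lower in GFP-negative (32% of the table) and 94 in GFP-medium (49.9% of the table). DESeq2's default filters left some gRNAs without an adjusted p. All its shares in this text, of the window and of the table, count those gRNAs as tested and not called. The calls of lower gRNAs did not hold under every fit. With the replicate number as a block, edgeR called 0 lower in GFP-negative (0% of the table) and 55 in GFP-medium (26.1%, against 39.5% of the table), and limma-voom called 0 in both (0% of the table in each), with 28 window gRNAs under an unadjusted p of 0.05 in GFP-negative (13.3%, against 19.6% of the table). Without GFP-negative replicate 2 the number lower in GFP-negative rose to 59 (26.3%, against 39.3% of the table). The number lower in GFP-medium was 34 (16.1%) when bulk replicate 1 was left out and 37 (17.8%) when bulk replicate 2 was, against 21.1% and 25.3% of the table. It was 0 when any 1 of the 3 GFP-medium replicates was left out, as over the whole table.

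Nearly all called gRNAs had 0 counts in the sorted population compared, and their median bulk level was below that of gRNAs not called. All 58 called lower in GFP-medium had 0 counts in its 3 libraries, as did 27 of the 30 called lower in GFP-negative in that population. Their mean bulk level had a median of 129 CPM (30 gRNAs, from 45.0 to 501) for GFP-negative and 164 CPM (58 gRNAs, from 45.0 to 595) for GFP-medium. These medians were below the 311 and 314 CPM of tested window gRNAs that were not called, though some called gRNAs were abundant in bulk. Against the floor of 3 counts per library the called gRNAs were at least 9.65- to 107-fold lower in GFP-negative, for those at 0 there, and at least 6.40- to 84.7-fold lower in GFP-medium. All 30 were also among the 58, which is 100% of the first list and 51.7% of the second. Both lists were set against the same bulk libraries. The overlap over the whole table was not counted, so that of the window is not read as a feature of it. The adjusted p of the called gRNAs lay between 0.00506 and 0.0397 for GFP-negative and between 0.00655 and 0.0484 for GFP-medium.

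The largest bound in GFP-negative was that of chr9:110949704-110949726, 3557 bp upstream of Tdgf1. It had 259, 557 and 685 CPM in bulk and 0 counts in all 6 sorted libraries, which makes it at least 107-fold lower in GFP-negative (edgeR adjusted p = 0.0397) and at least 71.2-fold lower in GFP-medium (adjusted p = 0.0340). The largest bound in GFP-medium was found slightly nearer to Tdgf1. There chr9:110949583-110949605 had 919, 347 and 519 CPM in bulk, 0 in GFP-medium (at least 84.7-fold lower, adjusted p = 0.0366) and 0, 15.3 and 0 CPM in GFP-negative. Near it, chr9:110949558-110949580 had 802, 476 and 167 CPM in bulk and 0 in GFP-medium (at least 68.6-fold lower, adjusted p = 0.0439), but 635, 58.4 and 0 CPM in GFP-negative. The GFP-negative values of the last gRNA overlapped its bulk values. In GFP-medium, the intervals that start at 110949583 and 110949558 each had an edgeR adjusted p of 0.0472 with the block. By limma-voom it was 0.286 and 0.172.

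A few gRNAs left single counts in GFP-negative cells. For chr9:110948951-110948973, 485, 242 and 296 CPM in bulk stood against 1 count in GFP-negative replicate 1, a bulk-to-negative ratio of 663 (exact 95% interval 117 to 26400 for counting error, edgeR adjusted p = 0.0387). For chr9:110948676-110948698 the levels were 33.4, 72.7 and 37.1 CPM in bulk and 1 count in GFP-negative replicate 2, a ratio of 93.9 (14.7 to 3925, adjusted p = 0.00675). With the replicate number as a block, edgeR's adjusted p for GFP-negative over bulk was 0.106 for the first and 0.184 for the second. Both gRNAs had 0 counts in GFP-medium. A further gRNA had 0 counts in GFP-negative and missed edgeR's threshold: chr9:110949519-110949541 had 702, 888 and 778 CPM in bulk and 375, 2.64 and 0 CPM in GFP-medium (adjusted p for GFP-negative over bulk of 0.0599 by edgeR and 0.00116 by DESeq2). It was the only one of the 211 with an unadjusted p under 0.05 in the lower direction for GFP-negative over GFP-medium.

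The window also held gRNAs whose sorted libraries all lay above bulk. In GFP-negative 4 of the 250 (1.60%) had all 3 libraries above all 3 bulk libraries, against 1.51% of the table, and in GFP-medium 3 (1.20%) did, against 0.74%. These shares are near those of the table. With TMM scaling the numbers were 6 and 2, and with DESeq2's size factors 1 and 1. The table's shares under these other scalings were not counted. Complete separation downwards was seen in CPM for 72 (28.8%) in GFP-negative, against 42% of the table, and for 127 (50.8%) in GFP-medium, against 58.3%. The mean CPM was higher in GFP-negative than in bulk for 76 of the 250 (30.4%), against 21.4% of the table, and higher in GFP-medium for 41 (16.4%), against 13.1%.

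In CPM, only chr9:110948189-110948211, 2042 bp upstream of Tdgf1, had all 6 sorted libraries above all bulk libraries. It had 986, 557 and 880.0 CPM in bulk, 3304, 2182 and 1544 in GFP-medium and 2906, 1125 and 4434 in GFP-negative. The log2 changes were 1.71 and 1.98, with edgeR adjusted p of 0.506 and 0.675, so neither passed the test; with DESeq2's size factors its libraries overlapped bulk (log2 0.74 and 0.78). Its neighbour 3 bp away, chr9:110948186-110948208, had 142, 250.3 and 611 CPM in bulk and 868, 1105 and 774 in GFP-medium, all higher than bulk in CPM (log2 1.51, edgeR adjusted p = 0.609). With TMM scaling or DESeq2's size factors its GFP-medium libraries were not all above bulk. In GFP-negative that neighbour had 538, 606 and 6432 CPM, of which replicates 1 and 2 lay within the bulk range.

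In CPM, a further 3 gRNAs had all GFP-negative but not all GFP-medium libraries above bulk. The first, chr9:110948259-110948281 at 2112 bp, had 242, 606 and 371 CPM in bulk, 3647, 2180.1 and 1707 in GFP-negative and 0, 1680.4 and 2759 in GFP-medium (log2 2.79 for GFP-negative over bulk, adjusted p = 0.621), and it alone stayed separate with DESeq2's size factors. The second, chr9:110949025-110949047 at 2878 bp, had 267, 250.3 and 389 CPM in bulk, 855, 2386 and 832 in GFP-negative and 0, 124 and 0 in GFP-medium (log2 2.37, adjusted p = 0.766). The last, chr9:110949396-110949418 at 3249 bp, was the most abundant window gRNA in bulk, with 1045, 848 and 1204 CPM, and had 3406, 1243 and 1397 CPM in GFP-negative but 30.3, 52.8 and 0 in GFP-medium. Its log2 change over bulk was 1.12 (adjusted p = 0.907; 0.05 by DESeq2). The second and the last were thus high in GFP-negative and low in GFP-medium, while the first was high in both except for GFP-medium replicate 1.

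Beside those at 2039 and 2042 bp, the remaining gRNA with all GFP-medium libraries above bulk was chr9:110949345-110949367 at 3198 bp, with 643, 493 and 482 CPM in bulk and 1427, 1678 and 3106 in GFP-medium (log2 1.94, edgeR adjusted p = 0.463); this separation held with DESeq2's size factors. In GFP-negative it had 435, 1139 and 1799 CPM, which overlap bulk. The interval that starts 1 bp earlier, chr9:110949344-110949366, went the other way. It had 234, 145 and 278 CPM in bulk, 0 in all GFP-medium libraries (edgeR adjusted p = 0.0151) and 29.3, 22.2 and 55.9 CPM in GFP-negative. These intervals share all but 1 bp of their target on each side, and their GFP-medium libraries did not overlap.

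Similar contrasts occurred within a cluster of overlapping gRNAs about 3250 bp upstream of Tdgf1. Beside the gRNA that starts at 110949396, chr9:110949397-110949419 had 677, 799 and 1288 CPM in bulk, 3600.1, 1479 and 210.3 in GFP-negative and 273, 1578 and 349 in GFP-medium. Then chr9:110949398-110949420 had 936, 719 and 371 CPM in bulk, 1131, 197 and 2637 in GFP-negative and 58.5, 18.5 and 24.5 in GFP-medium. Both were abundant in all 3 bulk libraries, and neither had GFP-negative libraries clear of bulk. On the other side chr9:110949395-110949417 had 894, 565 and 278 CPM in bulk, 179, 912 and 52.6 in GFP-negative and 80.1, 915 and 11.1 in GFP-medium. The last, chr9:110949394-110949416, had 226, 371 and 343 CPM in bulk, 0, 466 and 0 in GFP-negative and 0 in all GFP-medium libraries. The 5 starts differ by 1 bp each, and only the middle one had all 3 GFP-negative libraries above bulk.

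Some high values came from 1 or 2 libraries. In GFP-medium replicate 2, chr9:110950333-110950354 reached 22175 CPM, the highest level of any window gRNA in any library, with 0 in GFP-medium replicates 1 and 3, 0, 0 and 98.6 CPM in GFP-negative and 8.36, 113 and 204 CPM in bulk. In the same library chr9:110950189-110950211 reached 12486 CPM, against 19.5 and 0 in replicates 1 and 3. Both lie beyond 4000 bp upstream, where replicate 2 alone raised the GFP-medium share. In GFP-medium replicates 1 and 2, chr9:110949169-110949191 reached 10627 and 5624 CPM, with 0 in replicate 3 and 0, 161 and 0 CPM in GFP-negative. In GFP-negative replicate 3, chr9:110949483-110949505 reached 10469.5 CPM against 407 and 44.5 in replicates 1 and 2, and chr9:110948245-110948267 reached 8023 against 61.9 and 2386.

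Counts in the window were thus carried by few gRNAs after sorting. The 5 most counted window gRNAs of a library took 7.04% to 8.53% of its window counts in bulk. Their share was 19.2% to 40.9% in a GFP-negative library and 44.6% to 58.4% in a GFP-medium library. In bulk 53 to 55 gRNAs were needed to reach 50% of the window counts, while 8 to 23 were enough in GFP-negative and 4 to 6 in GFP-medium. Every sorted library was more concentrated than every bulk library, and GFP-negative replicate 2, which detected the most gRNAs, was the least concentrated of the sorted ones. Without the member most abundant in the sorted libraries compared, the window's log2 ratio was 0.19 for GFP-negative over bulk and -0.33 for GFP-medium over bulk.

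For GFP-negative over GFP-medium, edgeR called 0 of 211 window gRNAs in either direction at an adjusted p of 0.05 (0% of the table each way), while 42 (19.9%) were higher and 1 (0.474%) was lower before adjustment, at p under 0.05, against 22.5% and 1.99% of the table. By DESeq2, 17 of 248 (6.85%) were higher in GFP-negative, against 7.63% of the table, and 1 lower, against 0.688%. limma-voom called 0 window gRNAs (0.0315% of the table higher, 0% lower). The share of the window called higher was near that of the table. All 3 GFP-negative libraries were above all 3 GFP-medium libraries for 9 gRNAs (3.60%), against 2.12% of the table, and below for 1 (0.40%), against 0.281%. That 1 was chr9:110950214-110950236, with 3956, 446 and 509.5 CPM in GFP-medium, 0, 76.5 and 265 in GFP-negative and 501, 24.2 and 250.1 in bulk.

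Among the 17 gRNAs called by DESeq2, the most abundant in GFP-negative was chr9:110949396-110949418, whose values are given above (DESeq2 adjusted p = 0.0140, edgeR adjusted p = 0.179). Also called was chr9:110949298-110949320 at 3151 bp, with 0 in all GFP-medium libraries, 92.9, 72.3 and 29.6 CPM in GFP-negative and 234, 347 and 426 in bulk (DESeq2 adjusted p = 0.0190). For that gRNA both sorted populations lay below bulk, so it was higher in GFP-negative than in GFP-medium without being higher than in bulk. Some calls rested on 1 library. Among them, chr9:110949394-110949416 and chr9:110949413-110949435 were found in GFP-negative replicate 2 alone among the 6 sorted libraries, at 466 and 1422 CPM, and their DESeq2 adjusted p of 1.08e-11 and 3.65e-12 stood against an edgeR adjusted p of 0.179 for each. The gRNA called lower by DESeq2 was chr9:110949519-110949541 (adjusted p = 0.0155).

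Replicates of a sorted population ordered the window gRNAs differently from each other. Spearman's rho of counts over the 250 gRNAs, given as a description over gRNAs that share libraries and overlap in sequence, was 0.62 to 0.71 between bulk replicates, 0.31 to 0.33 between GFP-negative replicates and 0.17 to 0.30 between GFP-medium replicates. Between a GFP-negative and a GFP-medium library it was 0.57 to 0.66 when both carried the same replicate number and 0.22 to 0.33 when they did not. The highest value between different numbers was thus below the lowest between equal ones, and the same held over all gRNAs of the table, with 0.56 to 0.64 against 0.20 to 0.28. A sorted library was therefore closer to the other gate of its own number than to other replicates of its own gate.

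Overlapping gRNAs resembled each other weakly. Over the 182 pairs with midpoints 1 to 4 bp apart, Pearson's r of the log2 ratio of GFP-negative to bulk was 0.40, and it was 0.24 over 600 pairs 5 to 22 bp apart and 0.05 over 2183 pairs 23 to 100 bp apart. For GFP-medium over bulk the values were 0.13, 0.09 and -0.01. The bulk level itself had r of 0.53, 0.22 and -0.03 over the same distances. Pairs share members, libraries and target sequence, so these are descriptions with no test, and what the likeness in bulk contributes to the likeness in the ratio was not tested.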

How the data were processed

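The values are the raw counts that the authors deposited for each gRNA and library of the Tdgf1 line; the totals differ between libraries and no normalization was found. The build is mm10, per the submitters' processing notes. Which program made the counts is not given in the sources used. Gene spans came from RefSeq's matching assembly. No guide sequences were used here. Sample titles gave the population and replicate number. The dummy guide was left out of totals and tests, and the deep-sequencing samples and the other 3 lines were not analysed here.

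All 9 libraries were fitted over the whole table with edgeR 4.0.16 in R 4.3.3: filterByExpr with a minimum count of 10, which kept 3172 gRNAs, TMM scaling, the robust quasi-likelihood F test (2-sided) without a replicate term, and Benjamini-Hochberg adjustment over all gRNAs tested at 0.05. Alternatives were DESeq2 1.42.0, limma-voom (limma 3.58.1), other scalings, no filter, only the 6 libraries compared, the replicate number as a block, and each library left out. Sums over the window have no test. The edgeR fit was run on simulated counts drawn from bulk means with a preset spread, not that of the sorted libraries. That run therefore does not show how the fit performs on sorted libraries as uneven as these. The replicate numbers pair the samples: deviations from population means, over log2(CPM + 1), correlated at 0.147 to 0.487 in all 9 same-number pairs. Between numbers the values were -0.280 to -0.052. Deviations from a mean of 3 libraries sum to 0, so values below 0 between numbers follow on average from those above 0 and add no evidence. The pairing comes from the data, as the labels give only the number. Within each population, replicates differed by more than sampling noise in all 9 pairs.

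Named gRNAs were those called higher by edgeR or DESeq2 in any comparison, those whose sorted libraries all lay above bulk, the 5 highest by mean CPM in each population, the 3 largest losses called by edgeR in each comparison, those found in all 6 sorted libraries, and the edges; a selection of them is described. Others named in the text were chosen after their values were seen. The window, the lists and the rule were chosen with earlier results of these data known.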

Additional observations from a re-analysis of the deposited data

How the results depend on the processing

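Over 18 other settings, the number of window gRNAs called higher than bulk stayed at 0 in GFP-negative and in GFP-medium. The same settings called at most 0.291% and 0.567% of the table higher, so this 0 does not set the window apart. The 30 called lower in GFP-negative became 50 with DESeq2 (20.2%, against 32.0% of the table). They became 0 with limma-voom and 0 with the replicate block, which follows the pairing of samples by number (0% of the table in each). With 1 library left out they were 21 (10.1%, against 14.6% of the table) to 59 (26.3%, against 39.3%). The 58 called lower in GFP-medium became 94 with DESeq2 (37.9%, against 49.9% of the table) and 0 with limma-voom (0% of the table). With 1 library left out they were 0 (0% of the table) to 85 (37.4%, against 51.1%). The replicate block gave 55 (26.1%, against 39.5%). For GFP-negative over GFP-medium, 0 higher became 17 with DESeq2 (6.85%, against 7.63% of the table). It became 25 (11.8%, against 14.2% of the table) with DESeq2 on the gRNAs kept by edgeR's filter, a setting chosen after seeing the data. In the same order, 0 lower became 1 (0.403%, against 0.688%) and 3 (1.42%, against 1.64%). The cause of these differences was not tested. With DESeq2's size factors the log2 ratio of summed shares was -0.72 for GFP-negative over bulk and -1.07 for GFP-medium over bulk; with 1 library left out it was 0.15 to 0.38, -0.62 to 0.05 and, for GFP-negative over GFP-medium, 0.19 to 0.86. The scalings of the steps within the window were also added after seeing the data. Bulk depth limits what can be seen: 3 counts there are 24.2 to 27.8 CPM, and the lowest mean bulk level among the gRNAs called lower was 45.0 CPM.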
